A study of Homo sapiens with 12 samples.

Results

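Death receptors are cell surface proteins that start apoptosis when they bind their ligand, and 8 genes of this route were followed across 12 RNA-seq libraries of K562, a cell line from chronic myeloid leukaemia. The genes were TNFRSF10A and TNFRSF10B (the receptors for the ligand TRAIL), FAS (the receptor for Fas ligand), FADD (the adaptor that docks on them), CFLAR (the inhibitor c-FLIP), CASP8 and CASP9 (initiator caspases) and XIAP (an inhibitor of caspases). They were chosen by name, with earlier results of these data known, and each was read from the locus of highest mean among those that hold its symbol. This gave 8 of the 38272 loci in the table, and all 8 were among the 32866 loci tested.

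The 12 libraries formed 4 groups of 3 numbered replicates. TNFSG cells were transfected with Si623/Gap01 and then given tumour necrosis factor (TNF) at 20 ng/mL for 6 hours. TNF cells had the mock transfection, SiCt with GapCt, and the same TNF treatment. SG cells had Si623/Gap01 without TNF, and control cells had the mock transfection without TNF. Every group was therefore transfected, and all came from 1 cell line. The labels do not spell out Si623 and Gap01, which are read here as an siRNA and a GapmeR (an antisense oligonucleotide that recruits RNase H), and the series title names a long non-coding RNA. Nothing in the labels says that replicates came from separate cultures, so p-values measure the spread between these samples, which may be technical.

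Binding of a ligand gathers death receptors at the membrane, where FADD recruits caspase-8 into a signalling complex that cuts and activates executioner caspases. CFLAR enters the same complex in place of caspase-8 and limits its activation. Caspase-9 is activated in the mitochondrial arm, and XIAP binds active caspases. TNF also switches on NF-kB, a transcription factor for which CFLAR and the inhibitor gene BIRC3 are textbook targets.

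Levels are FPKM as deposited, which divide fragments by the length of the locus and by the size of the library. The locus named MIR146A, taken as the check of the targeted transfection, lay at 7.77, 4.51 and 4.03 FPKM in TNFSG libraries and at 28.1, 25.6 and 21.2 FPKM in TNF libraries, while SG libraries held 0, 0.0566 and 0.063 FPKM and control libraries 0.36, 0.569 and 0.159 FPKM. That this locus is the targeted RNA rests on a reading of the title. ICAM1 and NFKBIA, NF-kB targets used to check the treatment, averaged 339 and 138 FPKM in TNF libraries and 15.1 and 10.9 FPKM in control libraries. Read totals are not in the table, and depths relative to control replicate 1, from values that step in whole reads, lay between 0.787 and 1.204. All 8 K562 markers were present, among them the globins. Markers of other cell types were present as well: the sum of 3 fibroblast markers ran from 65.2 to 444 FPKM in TNFSG, 55.1 to 1178 FPKM in TNF, 21.3 to 45.3 FPKM in SG and 23.9 to 56.3 FPKM in control libraries, with COL1A2 the highest at 1098 FPKM. Sums of 4 lymphoid markers ran from 18.3 to 53.5 FPKM and of 3 epithelial markers from 54.3 to 74.4 FPKM over the libraries, and KDR, the 1 endothelial marker present, from 0 to 16.5 FPKM. None of these markers was listed at 0 in every library. In bulk RNA, fewer cells of a type and less RNA per cell cannot be told apart.

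CFLAR and CASP8 lie in 1 cluster on the long arm of chromosome 2. GENCODE release 29 (hg38) places CFLAR at 201116104 to 201176687, CASP10 at 201182881 to 201229406 and CASP8 at 201233443 to 201287711, all on the plus strand. Their promoter windows are shown because these neighbours share a chromosomal position and CFLAR, not CASP8, passed the test with TNF. Each window holds 250 bases before and 50 bases after the RefSeq start (GRCh38.p14), at chr2:201118466-201118765 for CFLAR and chr2:201233213-201233512 for CASP8, plus strand, 5′ to 3′, with a match to the NF-kB consensus decamer in capitals.
CFLAR promoter: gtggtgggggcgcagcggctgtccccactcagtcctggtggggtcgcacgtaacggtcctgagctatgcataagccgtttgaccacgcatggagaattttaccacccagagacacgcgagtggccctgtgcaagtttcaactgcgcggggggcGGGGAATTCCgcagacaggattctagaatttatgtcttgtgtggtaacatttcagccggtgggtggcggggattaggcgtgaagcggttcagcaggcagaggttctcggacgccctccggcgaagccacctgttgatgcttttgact
CASP8 promoter: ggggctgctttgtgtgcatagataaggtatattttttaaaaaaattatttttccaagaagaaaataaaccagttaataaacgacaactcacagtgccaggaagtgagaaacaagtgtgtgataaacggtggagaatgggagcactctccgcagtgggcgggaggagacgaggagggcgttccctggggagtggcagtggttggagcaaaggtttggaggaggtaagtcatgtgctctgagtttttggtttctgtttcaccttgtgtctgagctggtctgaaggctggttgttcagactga
The CFLAR window held 1 match, GGGGAATTCC, whose first base lay at -97 from the start. No match was found in the CASP8 window, nor in those of FAS, FADD, CASP9 and XIAP. RefSeq windows were matched for 6 of the 8 genes, and TNFRSF10A and TNFRSF10B had no window to search. The CFLAR window lies wholly inside the GENCODE bounds of CFLAR, past their first base. Over both strands, 10.8% of 27305 promoters of the same length held a match. The window of BIRC3 held 2 matches, and those of TNFSF10, BIRC2 and BID held 0. The CASP10 window was not searched, and the part of a match in any change with TNF was not tested.

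CFLAR had the highest level of the 8 genes in each group, and FADD came next, with no overlap between these neighbours or with the gene below. In TNFSG libraries CFLAR averaged 129 ± 15.1 FPKM and FADD 29.8 ± 4.53 FPKM (SD, n = 3). TNFRSF10B, CASP8, FAS, XIAP and TNFRSF10A followed, each overlapping its neighbour in this order, and CASP9 had the lowest mean at 5.74 ± 0.808 FPKM. The place of FAS in TNFSG rests on 1 library at 49.2 FPKM, or 63 reads on the reading given below, with 2 libraries listed at 0. The order in TNF libraries was the same, except that XIAP and TNFRSF10A did not overlap. In SG libraries TNFRSF10B came 6th, below XIAP with overlapping values, and FAS was listed at 0. In control libraries CASP8, XIAP, TNFRSF10A, TNFRSF10B, CASP9 and FAS formed an unbroken run of overlapping neighbours.

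**Figure D1:**
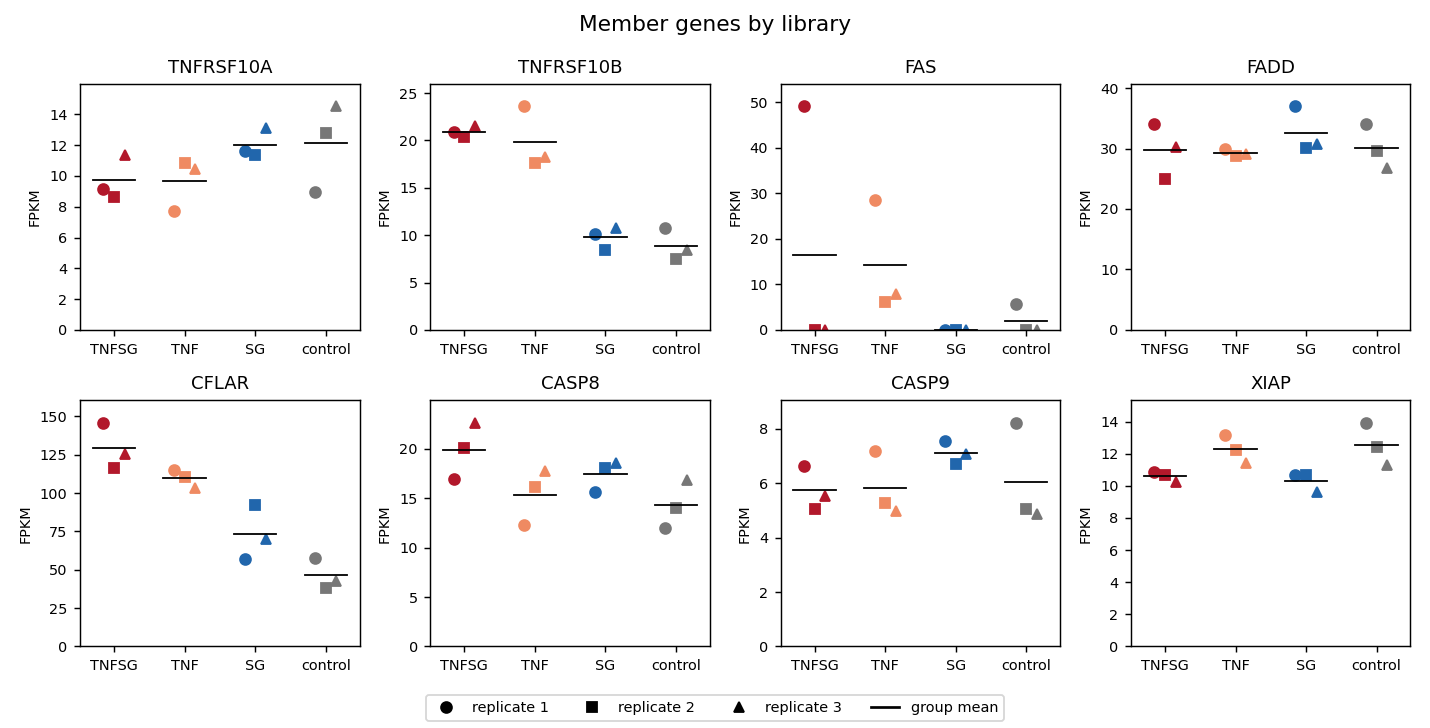
FPKM of the 8 genes in each library, 1 panel per gene with its own axis from 0, where circles, squares and triangles are replicates 1, 2 and 3 and the black line is the group mean. The TNFRSF10B values with TNF, 17.6 FPKM and above, all lie above those without it, 10.8 FPKM and below.

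Addition of TNF to mock-transfected cells was accompanied by a rise of TNFRSF10B and of CFLAR, while the other 6 genes did not pass the test. The test was limma on log2(FPKM + 1), two-sided, with adjustment over all loci and a threshold of 0.05. Both calls were rises, so 2 of 8 genes passed, against 1.45% of all loci tested. Replicate values did not overlap between TNF and control for 3 of 8 genes, all higher, against 15.6% of loci. For FAS, 1 of these 3, the nearest values were 0.537 FPKM apart, less than 1 read on the reading given below. The median log2 change was 0.03 over the 8 genes and -0.02 over all loci.

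TNFRSF10B encodes DR5, a TRAIL receptor with a death domain. It had 23.6, 17.6 and 18.3 FPKM in TNF libraries, against 10.7, 7.45 and 8.39 FPKM in control libraries. The lowest TNF library stood above the highest control library. The mean was 19.8 ± 3.29 FPKM in TNF and 8.86 ± 1.69 FPKM in control (SD, n = 3 each), a ratio of 2.24. This came to a log2 change of 1.08 ± 0.15 (SE), which passed at a limma adjusted p of 0.00567. The call ended when the model held just these 2 groups (limma adjusted p 0.119, with 0.00293 to 0.119 over the alternatives), whereas the log2 change stayed between 0.96 and 1.21.

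With Si623/Gap01 in both groups, TNFRSF10B had 20.9, 20.4 and 21.5 FPKM in TNFSG libraries, against 10.2, 8.41 and 10.8 FPKM in SG libraries. Again the groups did not overlap. The log2 change was 1.03 ± 0.15 with a limma adjusted p of 0.00741, and it passed in all 17 alternatives (0.00375 to 0.0491). The interaction, which tests whether the TNF change differed between the transfections, was -0.05 ± 0.21 on the log2 scale with an unadjusted limma p of 0.807. Between the transfections the TNFRSF10B change was 0.08 ± 0.15 in TNFSG against TNF (limma adjusted p 0.918) and 0.14 ± 0.15 in SG against control (limma adjusted p 0.817).

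TNFRSF10A encodes DR4, the TRAIL receptor whose gene lies near that of TNFRSF10B on chromosome 8. Its values were 9.15, 8.62 and 11.4 FPKM in TNFSG, 7.71, 10.8 and 10.5 FPKM in TNF, 11.6, 11.4 and 13.1 FPKM in SG and 8.98, 12.8 and 14.5 FPKM in control libraries. TNF and control overlapped, and so did TNFSG and SG, where the highest TNFSG value was 11.37 FPKM and the lowest SG value 11.35 FPKM. TNF values all lay below SG values, a pair that was not tested. Its log2 change was -0.29 ± 0.18 in TNF against control (limma adjusted p 0.663) and -0.29 ± 0.18 in TNFSG against SG (limma adjusted p 0.64), and -0.06 and -0.37 with all loci of the symbol summed. The 2 receptors thus gave unlike values: TNFRSF10A had the higher FPKM of the pair in 5 of 6 libraries without TNF and in 0 of 6 with it.

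The ratio of TNFRSF10B to TNFRSF10A within a library was 2.28, 2.37 and 1.89 in TNFSG, 3.07, 1.63 and 1.75 in TNF, 0.873, 0.741 and 0.825 in SG and 1.19, 0.582 and 0.577 in control. The ratios with TNF lay above all those without it. They are a description and were not tested, since both genes enter the comparisons above.

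FAS was listed at 0 in 7 of 12 libraries. Its values were 49.2, 0 and 0 FPKM in TNFSG, 28.5, 6.18 and 7.93 FPKM in TNF, 0, 0 and 0 FPKM in SG and 5.64, 0 and 0 FPKM in control. TNF values lay above control values by 0.537 FPKM at the nearest, while TNFSG overlapped with SG. The log2 change in TNF against control was 2.72 ± 1.42 with a limma adjusted p of 0.546. The highest FAS values were in replicate 1 of TNFSG, TNF and control. Multiplied by each library's depth relative to control replicate 1, FAS values become read counts if control replicate 1 held 6 reads. They then lie within 0.06 of a read of 63 reads in TNFSG replicate 1. For TNF replicates 1, 2 and 3 the nearest counts are 31, 6 and 7 reads, within the same tolerance. This tolerance was set after the values were seen. The counts are each library's own and are not matched for depth. Control replicate 1 and TNF replicate 2 both come to 6 reads. On that reading 1 read is 0.941 FPKM and a count of 0 allows up to 3 reads, or 2.82 FPKM, at the depth of control replicate 1, for counting error only. FAS overlaps ACTA2 on the opposite strand on chromosome 10.

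**Figure D2:**
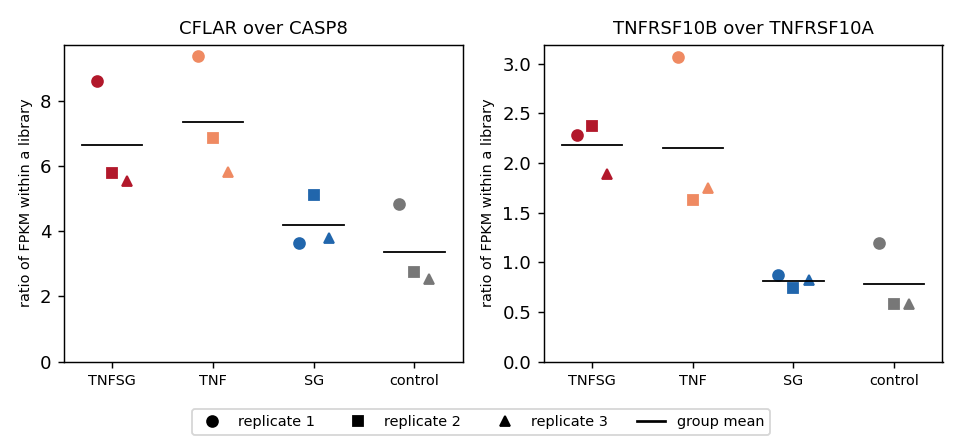
Ratio of FPKM within each library for CFLAR over CASP8 (left) and TNFRSF10B over TNFRSF10A (right), with replicates 1, 2 and 3 as circles, squares and triangles and the group mean as a black line. For both pairs the 6 libraries with TNF lie above the 6 without it, the nearest CFLAR over CASP8 ratios being 5.56 in TNFSG and 5.12 in SG. CASP8 is read from 1 of its 8 loci, and with all of them summed the CFLAR over CASP8 ratios overlap.

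FADD, the adaptor between receptors and caspase-8, had 34.1, 25.0 and 30.2 FPKM in TNFSG, 29.9, 28.8 and 29.04 FPKM in TNF, 37.0, 30.2 and 30.7 FPKM in SG and 34.0, 29.6 and 26.8 FPKM in control libraries. All groups overlapped. Its log2 change was -0.03 ± 0.13 in TNF against control (limma adjusted p 0.965) and -0.13 ± 0.13 in TNFSG against SG (limma adjusted p 0.785).

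CFLAR, the inhibitor that competes with caspase-8, had 114.9, 110.8 and 103.2 FPKM in TNF libraries, against 58.0, 38.4 and 42.6 FPKM in control libraries. The groups were far apart, with 45.2 FPKM between the nearest values. The mean was 109.6 ± 5.95 FPKM in TNF and 46.4 ± 10.3 FPKM in control (SD, n = 3 each), a ratio of 2.37, or a log2 change of 1.24 ± 0.19 (limma adjusted p 0.0101). The call ended without control replicate 3 (limma adjusted p 0.0532) and when the model held just TNF and control libraries (0.0622), over a range of 0.0059 to 0.0622 among the alternatives, and the log2 change stayed between 1.12 and 1.41.

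In cells with Si623/Gap01, CFLAR had 146.0, 116.4 and 125.8 FPKM in TNFSG libraries, against 57.1, 92.4 and 70.3 FPKM in SG libraries. These groups did not overlap either. The change of 0.83 ± 0.19 on the log2 scale missed the threshold (limma adjusted p 0.0735, unadjusted 0.00149). It passed without SG replicate 2 (log2 change 1.01, limma adjusted p 0.0371) and with a filter at 5 FPKM (0.0477), over a range of 0.0371 to 0.238. The interaction for CFLAR was -0.41 ± 0.27 on the log2 scale with an unadjusted limma p of 0.156 (-0.80 with replicates 2 and 3 only, an alternative chosen after seeing the data), so a difference between the TNF changes in the 2 transfections was not shown.

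CFLAR was also higher on average with Si623/Gap01, at 73.3 ± 17.9 FPKM in SG and 46.4 ± 10.3 FPKM in control. The lowest SG value, 57.1 FPKM, fell below the highest control value, 58.0 FPKM. The log2 change was 0.64 ± 0.19 with a limma adjusted p of 0.293 and an unadjusted p of 0.0072, and the alternatives ran from 0.46 (without SG replicate 2) to 0.98 (replicates 2 and 3 only), none of them called. In TNFSG against TNF each TNFSG value stood above each TNF value, by 1.47 FPKM at the nearest, with a log2 change of 0.23 ± 0.19 and a limma adjusted p of 0.787.

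Sums of fibroblast markers reached higher values with TNF. They overlapped between TNF and control libraries and did not overlap between TNFSG and SG libraries. The part of these markers in the values of TNFRSF10B and CFLAR was not tested. The highest COL1A2 value was in TNF replicate 1. Without that library the log2 change in TNF against control was 0.96 for TNFRSF10B (limma adjusted p 0.0205, range 0.00293 to 0.119) and 1.21 for CFLAR (limma adjusted p 0.047, range 0.0059 to 0.0622).

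CASP8 had 16.9, 20.1 and 22.6 FPKM in TNFSG, 12.2, 16.1 and 17.7 FPKM in TNF, 15.6, 18.1 and 18.5 FPKM in SG and 12.01, 14.03 and 16.9 FPKM in control libraries. The groups overlapped in each pairwise comparison tested. The lowest TNFSG value, 16.93 FPKM, lay above the highest control value, 16.86 FPKM, a pair that was not tested. Its log2 change was 0.09 ± 0.17 in TNF against control (limma adjusted p 0.91) and 0.18 ± 0.17 in TNFSG against SG (limma adjusted p 0.78). With all loci of the CASP8 symbol summed these were 0.51 ± 0.30 (limma adjusted p 0.62) and 0.30 ± 0.30 (limma adjusted p 0.801). Means were higher with Si623/Gap01, with a log2 change of 0.36 ± 0.17 in TNFSG against TNF (limma adjusted p 0.565, unadjusted 0.0564) and 0.27 ± 0.17 in SG against control (limma adjusted p 0.639). With the replicate number as a block in the model, the SE in SG against control was 0.068 (limma adjusted p 0.163).

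Set against each other within a library, CFLAR exceeded CASP8 in all 12 libraries. The ratio was 8.62, 5.80 and 5.56 in TNFSG, 9.39, 6.88 and 5.83 in TNF, 3.65, 5.12 and 3.80 in SG and 4.83, 2.74 and 2.53 in control libraries. Ratios with TNF lay above those without it in the plot of ratios, and TNFSG overlapped with TNF. This separation holds for the CASP8 locus used, with 51.0% of the symbol's summed FPKM. With all 8 CASP8 loci summed, ratios with and without TNF overlap. CFLAR and CASP8 values are levels per length of locus and say nothing of the amounts of protein.

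The CASP8 symbol was spread over 8 loci, and the locus used holds 51.0% of their summed FPKM, whereas the main loci of the other genes hold 86.2% or more. Of the 14 further loci with a symbol of the 8 genes, 12 were tested and 0 passed limma's adjusted threshold in any of the 5 comparisons (lowest adjusted p 0.229), while 1 had an unadjusted p under 0.05 for each of TNF against control, TNFSG against SG and SG against control. A small CASP8 locus, named after its values were seen, held 16, 17 and 20 reads in TNFSG, 5, 19 and 14 in TNF, 5, 7 and 3 in SG and 3, 6 and 4 in control libraries, recovered from whole-read steps. Its TNFSG values lay above its SG values (log2 change 1.08 ± 0.35, limma adjusted p 0.23).

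CASP9, the initiator caspase of the apoptosome, had 6.62, 5.04 and 5.54 FPKM in TNFSG, 7.18, 5.28 and 4.99 FPKM in TNF, 7.56, 6.70 and 7.09 FPKM in SG and 8.23, 5.06 and 4.88 FPKM in control libraries. TNFSG values lay below SG values without overlap, by 0.073 FPKM at the nearest, while TNF and control overlapped. CASP9 had a log2 change of -0.27 ± 0.19 in TNFSG against SG (limma adjusted p 0.681) and -0.03 ± 0.19 in TNF against control (limma adjusted p 0.981).

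XIAP, which binds and blocks active caspases, passed in no comparison. It had 10.9, 10.7 and 10.2 FPKM in TNFSG and 13.2, 12.2 and 11.4 FPKM in TNF libraries, against 10.6, 10.7 and 9.65 FPKM in SG and 13.9, 12.4 and 11.3 FPKM in control libraries. The 6 values with Si623/Gap01 lay below the 6 mock values. For XIAP this was a log2 change of -0.25 ± 0.09 in SG against control (limma adjusted p 0.402, unadjusted 0.0219) and -0.19 ± 0.09 in TNFSG against TNF (limma adjusted p 0.584, unadjusted 0.0679). Within each transfection the values with and without TNF overlapped, with log2 changes of -0.03 ± 0.09 in TNF against control and 0.04 ± 0.09 in TNFSG against SG.

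Counted over the 8 genes, TNFSG against SG had 1 call, TNFRSF10B, against 1.64% of loci. Replicate values did not overlap for 3 of 8 genes in that comparison, TNFRSF10B and CFLAR higher and CASP9 lower, against 18.2% of loci. In SG against control limma called 0 of 8, against 0.17% of loci, while 2 of 8 and 9.86% of loci had an unadjusted p under 0.05, and 1 gene, XIAP, did not overlap, against 14.9% of loci. In TNFSG against TNF limma called 0 of 8, against 0.128% of loci, while 0 of 8 and 9.11% of loci had an unadjusted p under 0.05, and 2 genes, CFLAR and XIAP, did not overlap, against 14.8%. The interaction gave 0 of 8, against 0.00913% of loci, and 0 of 8 at an unadjusted p under 0.05, against 3.75%. Each of these 4 pairwise comparisons shares a group with 2 others, so their values are given side by side, while TNF against control and TNFSG against SG have no library in common.

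**Figure D3:**
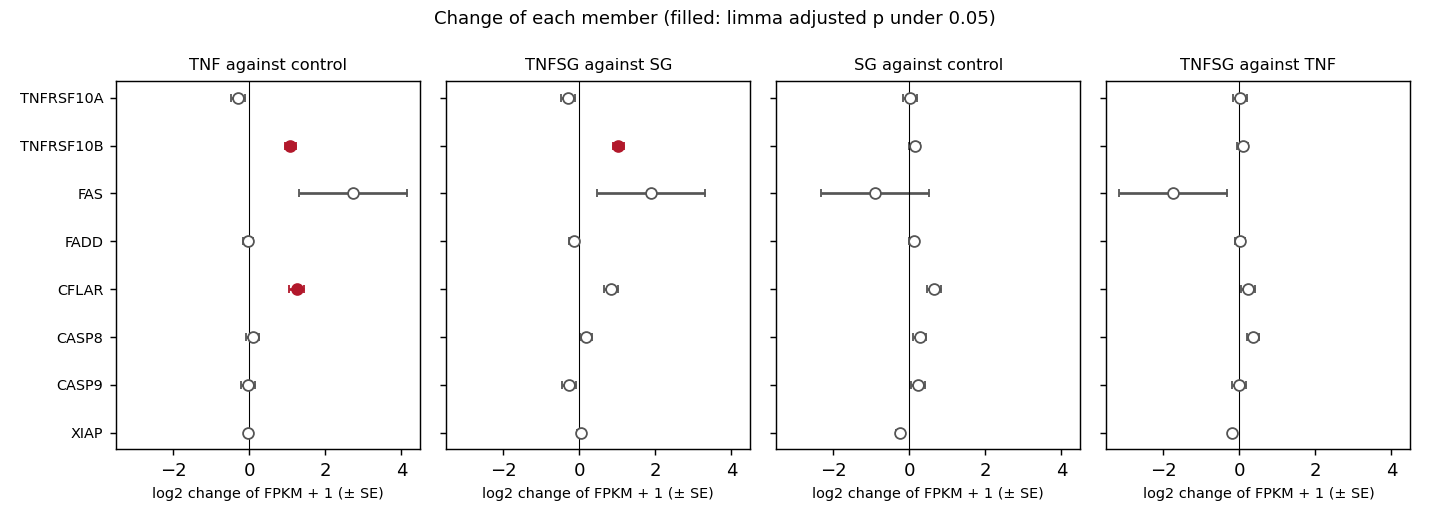
Change of each of the 8 genes on the log2(FPKM + 1) scale in the 4 pairwise comparisons, points with bars of 1 SE and filled where the limma adjusted p is under 0.05. TNFRSF10B is filled in both TNF comparisons, CFLAR in TNF against control, and FAS has the widest bars, with an SE of 1.42.

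The rest of the route was followed in 6 lists of textbook genes, 51 in all, of which 41 were tested. Among ligands, decoys and other death receptors, TNFSF10 rose in both TNF comparisons, and the other 3 tested genes did not pass. Over all loci, 1.45% were called in TNF against control and 1.64% in TNFSG against SG. TNFSF10, which encodes TRAIL, the ligand of TNFRSF10A and TNFRSF10B, had 8.80, 7.08 and 4.99 FPKM in TNF libraries, against 1.67, 1.95 and 1.18 FPKM in control libraries. It had 10.9, 8.19 and 6.18 FPKM in TNFSG libraries, against 2.52, 1.67 and 2.07 FPKM in SG libraries. Neither pair of groups overlapped. The log2 change was 1.59 ± 0.24 in both comparisons, with limma adjusted p of 0.00974 in TNF against control and 0.00956 in TNFSG against SG. Both calls ended with only the groups compared (0.0984 and 0.0674) and with replicates 2 and 3 only (0.115 and 0.114), and over all alternatives the limma adjusted p ran up to 0.115 and 0.114. TNFRSF10C, a decoy TRAIL receptor, averaged 5.46 FPKM in TNF and 2.79 FPKM in control (log2 change 0.76 ± 0.36, limma adjusted p 0.475). The soluble decoy TNFRSF11B averaged 5.83 FPKM in SG and 16.8 FPKM in control (log2 change -1.91 ± 0.92, limma adjusted p 0.539). The list's median log2 change was 0.19 in TNF against control and 0.54 in TNFSG against SG, beside -0.02 and -0.03 over all loci.

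Of 6 tested inhibitor of apoptosis genes and regulators, BIRC3 rose in both TNF comparisons and BIRC2 in TNFSG against SG. Of all loci, 1.45% were called in TNF against control and 1.64% in TNFSG against SG. BIRC3 (cIAP2, a ubiquitin ligase of the TNF receptor complex) had 14.1, 8.77 and 10.6 FPKM in TNF libraries, against 0.157, 0.473 and 0.268 FPKM in control libraries. With Si623/Gap01 it had 12, 8.99 and 9.05 FPKM in TNFSG libraries, against 0.348, 0.436 and 0.202 FPKM in SG libraries. Its values with TNF were all above 8 FPKM and those without it under 0.5 FPKM. The log2 changes were 3.21 ± 0.20 and 3.04 ± 0.20, with limma adjusted p of 3.2e-05 and 4.24e-05, and both passed in all 17 alternatives. The sizes depended on the pseudocount, reaching 4.87 and 4.59 with 0.1 FPKM. The neighbouring BIRC2 (cIAP1) averaged 37.5 ± 2.40 FPKM in TNFSG and 19.9 ± 0.647 FPKM in SG (SD, n = 3 each; log2 change 0.88 ± 0.18, limma adjusted p 0.0462). That call ended in 8 of 17 alternatives, among them leaving out any 1 of the 6 TNFSG or SG libraries, with limma adjusted p up to 0.166. In TNF against control the BIRC2 log2 change was 0.66 ± 0.18 (limma adjusted p 0.149). BIRC5 and BIRC6 had log2 changes of -0.09 ± 0.09 and -0.06 ± 0.09 in TNF against control.

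Of 7 tested genes of the mitochondrial arm, BID rose in TNFSG against SG, where 1.64% of all loci were called. None of the 7 passed in TNF against control, where 1.45% of all loci were called. There 1 of the 7 reached an unadjusted limma p under 0.05, beside 11.2% of all loci. BID, which caspase-8 cuts to carry the death signal to mitochondria, averaged 15.8 ± 1.65 FPKM in TNFSG and 10.8 ± 1.16 FPKM in SG (SD, n = 3 each; log2 change 0.51 ± 0.10, limma adjusted p 0.0374). The call ended in 7 of 17 alternatives, including leaving out TNFSG replicate 1 or 2 or SG replicate 2 or 3 (0.13 to 0.15), with limma adjusted p up to 0.193. The BID log2 change was 0.40 ± 0.10 in TNF against control (limma adjusted p 0.115). It was -0.26 ± 0.10 in TNFSG against TNF (0.466, limma adjusted) and -0.38 ± 0.10 in SG against control (0.251, limma adjusted). The mitochondrial protease HTRA2 and the flavoprotein AIFM1 did not pass, with log2 changes of -0.13 ± 0.09 for HTRA2 in TNF against control and 0.24 ± 0.10 for AIFM1 in SG against control (limma adjusted p 0.708 and 0.489).

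In the 6 other tested caspases limma called 0 in each comparison, and an unadjusted p under 0.05 was reached by 2 for TNF against control, 1 for TNFSG against SG and 2 for SG against control. Over all loci that threshold was passed by 11.2%, 11.4% and 9.86% in the same order, and the adjusted threshold by 1.45%, 1.64% and 0.17%. CASP10, the caspase-8 relative whose gene lies between CFLAR and CASP8, averaged 14.01 ± 0.958 FPKM in TNFSG, 12.8 ± 1.34 FPKM in TNF, 10.3 ± 1.24 FPKM in SG and 7.97 ± 1.93 FPKM in control (SD, n = 3 each). Its log2 change in TNF against control was 0.64 ± 0.15, with a limma adjusted p of 0.0933. CASP6, an executioner caspase, had a log2 change of -0.36 ± 0.12 in TNF against control (limma adjusted p 0.254). CASP4, an inflammatory caspase, averaged 1.60 FPKM in SG and 0.503 FPKM in control (limma adjusted p 0.358). Along the chromosome 2 cluster the log2 changes in TNF against control were 1.24 for CFLAR, 0.64 for CASP10 and 0.09 for CASP8, the last being 0.51 ± 0.30 with all CASP8 loci summed.

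Among 10 tested adaptors and death domain partners limma called 0 in each comparison, and an unadjusted p under 0.05 was reached by 2 for TNF against control and 1 for TNFSG against SG, beside 11.2% and 11.4% of all loci. DEDD, a protein with a death effector domain, had log2 changes of 0.38 ± 0.09 in TNF against control (limma adjusted p 0.0963) and 0.41 ± 0.09 in TNFSG against SG (limma adjusted p 0.0684). TRADD, the adaptor of the TNF receptor, averaged 6.86 FPKM in TNF and 5.05 FPKM in control (limma adjusted p 0.493). DAXX, a partner of the FAS death domain, had a log2 change of 0.37 ± 0.12 in TNF against control (limma adjusted p 0.242). Of 8 tested executioner substrates limma called 0 in each comparison, and an unadjusted p under 0.05 was reached by 2 for TNF against control and 3 for TNFSG against SG, beside the same 11.2% and 11.4%. ACIN1, a chromatin protein cut in apoptosis, had log2 changes of -0.15 ± 0.06 and -0.18 ± 0.06 in these comparisons (limma adjusted p 0.337 and 0.22). LMNB1, a nuclear lamin, had a log2 change of -0.17 ± 0.07 in TNF against control (limma adjusted p 0.378), and PARP1, a DNA repair enzyme, 0.15 ± 0.06 in SG against control (limma adjusted p 0.49). None of the 41 genes passed in SG against control, TNFSG against TNF or the interaction. Over all loci limma called 0.17%, 0.128% and 0.00913% in these 3, so 0 of 41 is near that share. In TNF against control and TNFSG against SG it called 1.45% and 1.64% of all loci.

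**Figure D4:**
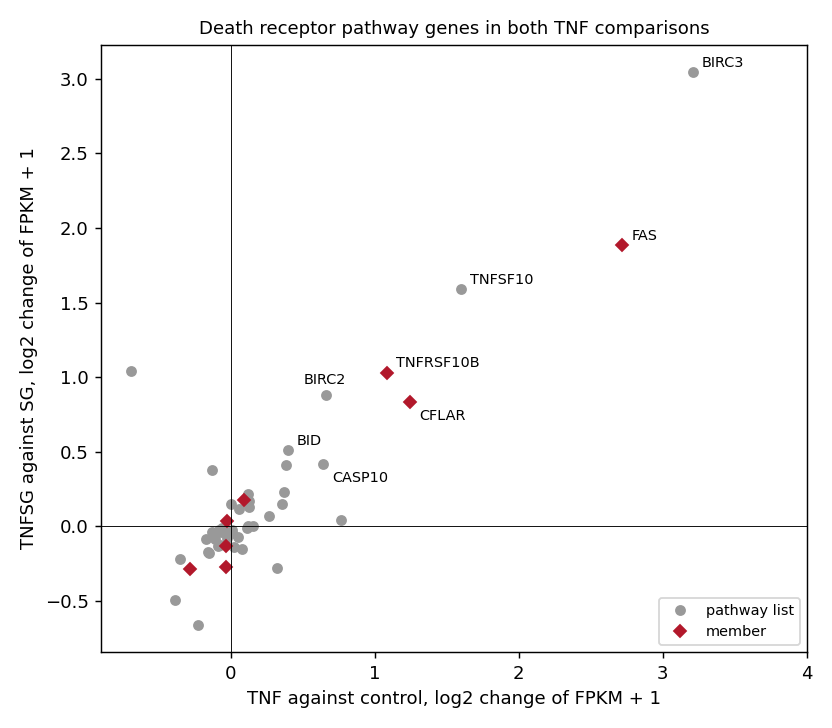
Log2 change of FPKM + 1 in TNF against control (horizontal) and in TNFSG against SG (vertical) for the 8 genes (red diamonds) and the 41 tested list genes (grey circles), which share no libraries between the axes. BIRC3 lies farthest out at 3.21 and 3.04, with TNFSF10, TNFRSF10B and CFLAR also above 0.8 on both axes, and FAS at 2.72 and 1.88 without a call.

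Across the 12 libraries the loci whose log2 values ran most like TNFRSF10B were TLDC1 (Pearson r 0.992), GCH1 (0.990) and SIX5 (0.990). GCH1, which encodes the first enzyme of tetrahydrobiopterin synthesis, averaged 11.1 FPKM in TNFSG, 11.2 FPKM in TNF, 4.15 FPKM in SG and 3.62 FPKM in control. For CFLAR they were TDRD7 (0.939), the locus shared by LRG1 and PLIN5 (0.938) and IRF2 (0.938). IRF2, an interferon regulatory factor, averaged 15.6 FPKM in TNFSG, 12.4 FPKM in TNF, 7.43 FPKM in SG and 4.96 FPKM in control. TNFRSF10B and CFLAR gave a Pearson r of 0.879 with each other. These are descriptions over 12 libraries that share treatments and processing.

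Counting by strand is not stated in the sources used here, and 7 of the 8 genes overlap a gene on the opposite strand, CASP8 being the exception. Reads of CFLAR and CFLAR-AS1, of XIAP and XIAP-AS1, or of TNFRSF10B and RHOBTB2 can therefore not be told apart if strand was not used. Within each of the 4 groups replicate 1 had the highest FADD and CASP9 value and the lowest CASP8 value. HBZ, an embryonic globin, was also lowest in replicate 1 of every group, at 268 to 308 FPKM against 473 to 1187 FPKM in replicates 2 and 3, and its part in these values was not tested. With replicates 2 and 3 only, limma called 2 of 8 genes in TNF against control and 1 of 8 in TNFSG against SG, as with all libraries.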

How the data were processed

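Single 50-base reads of K562 RNA came from an Illumina HiSeq, per the labels' protocols. The submitters' processing notes list TopHat2 2.0.14, Bowtie2 2.2.9, Cufflinks and hg38. For Cufflinks the version, and for the annotation the release, is not given in the sources used here. Deposited values are the authors' FPKM per locus, 1 column per library, and total depth is unknown. Column letters give the replicate and digits the group.

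For each gene, loci whose name, split at commas, holds the symbol were found, and the one of highest mean FPKM was used. Values were transformed as log2(FPKM + 1), which understates changes of low loci. Loci at 1 FPKM or more in at least 3 of 12 libraries were fitted with limma 3.58.1 in R 4.3.3 (4 group means, eBayes with a trend), Benjamini-Hochberg adjusted over all loci. List genes are named where called or among the 2 of lowest p in TNF against control or SG against control. Likeness was read over named loci averaging at least 2 FPKM. Members and lists were chosen with earlier results of these data known. Alternatives were pseudocounts of 0.1 and 0.5, a replicate block, other filters and scalings, no trend, only the groups compared, the sum over loci of a symbol, and each library left out. Tables and figures used Python 3.11.15, numpy 2.4.6, pandas 2.3.3 and matplotlib 3.10.9, and the model was tested on simulated data.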

Additional observations from a re-analysis of the deposited data

How the results depend on the processing

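TNFRSF10B, called in TNFSG against SG, kept its call in all 17 alternatives, and no called change of the 8 genes turned its direction. Genes called in TNF against control, 2 in the report, fell to 0 with only the groups compared in the model, where 168 loci passed in place of 478, and ranged from 1 to 2 when single libraries were left out. Genes called in TNFSG against SG, 1 in the report, were 2 with a filter at 5 FPKM and ranged from 1 to 2 when single libraries were left out. With the replicate number as a block the counts were 2 and 1, with CFLAR at limma adjusted p values of 0.0249 and 0.103, while the loci called rose to 831 against 478 and to 843 against 540. Replicates sharing a number had correlations of 0.00651 to 0.138, 1 of 12 pairs over 0.1, and 7 of 12 libraries correlated best with their own number. Under the requirement that all pairs exceed 0.1 the numbers were not taken as pairs. That requirement does not exclude a replicate effect, and FADD, CASP8 and CASP9 placed replicate 1 alike in the 4 groups. Of 37 uncalled results among the 40 of the 8 genes, 55 of 664 alternatives changed sign and 2 were called. Over all alternatives the loci called ran from 168 to 831 in TNF against control, 213 to 843 in TNFSG against SG, 9 to 115 in SG against control, 2 to 97 in TNFSG against TNF and 1 to 12 in the interaction, against 478, 540, 56, 42 and 3 in the report. Fewer samples enter where libraries are left out; otherwise the cause was not tested. Total depth is unknown, which limits how far values near 0, such as FAS in 7 libraries, can be read.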
